A study of Mus musculus with 4 samples.

Results

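Astrocyte precursor-like cells were examined in 1 of the 4 single-cell libraries of the series, the library labelled cortex at embryonic day E18.5. They were chosen by measured transcripts. A cell barcode was a member if at least 3 of the 6 genes Sparcl1, Pla2g7, Slc6a11, Grm5, Tnc and Aqp4 had a unique molecular identifier (UMI, 1 captured transcript), if Pdgfra and Sox10 had none, and if fewer than 3 of the ependymal genes Crym, Fxyd1, Riiad1, Tppp3, S100a6 and Nme5 were found. This gave 247 of the 3104 barcodes kept in that library, 7.96% (exact 95% interval 7.03 to 8.97%), out of 6296 kept barcodes in the whole series. Kept barcodes had at least 1000 genes and at most 10% of UMIs from mitochondrial genes.

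The series set out to describe progenitor types while the embryonic mouse forebrain makes neurons and then glia. All embryos came from heterozygous Nestin-GFP mice bred with homozygous DCX-mRFP mice and carried both reporters. Cells of the cortex or the ganglionic eminence (GE) at E18.5 or E15.5 were dissociated and sorted for green fluorescence, the signal of the Nestin reporter, which marks neural progenitors. Each of the 4 groups (labelled cortex E18.5, GE E18.5, cortex E15.5 and GE E15.5) held 1 library, and the number of embryos behind it is not given. With 1 library a group, spread between samples could not be measured, so differences are described without a test. Intervals are exact 95% intervals that cover counting error only.

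Astrocytes take up transmitters and ions, supply lipids and control water flow. Their precursors arise late in gestation from radial glia, the stem cells that line the ventricles, and pass through a dividing stage before they mature. The GE is the ventral forebrain region that makes inhibitory neurons, and it also yields astrocytes and oligodendrocyte precursors.

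The region genes went against the label of this library. At least 1 UMI of the ventral patterning genes Gsx1, Gsx2, Nkx2-1 and Six3 was found in 42.5% of the members (36.3 to 48.9%), and in 9.83% of the 234 barcodes of the same rule in the library labelled GE E18.5. At least 1 UMI of the dorsal genes Emx1, Neurog2, Eomes and Tfap2c was found in 3.24% of the members, and in 42.3% of the barcodes of the same rule labelled GE E18.5. After every barcode was thinned to 4000 UMIs, the ventral share was 26.2% in members and 2.99% in those labelled GE, and the dorsal share 0.905% and 25.2%. The names of the deposited files also give the other region for each library. Groups are called here by their labels, so a direction between the E18.5 libraries rests on labels that the patterning genes contradict.

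The 4 libraries held 879 to 3139 barcodes and between 14528712 and 31173997 UMIs. Members held a median of 8397 UMIs (lowest 2692, highest 43254) and 3218 genes, and the other 2857 kept barcodes of their library 8824 UMIs and 3126 genes. The library labelled cortex E18.5 shared 4, 2 and 7 barcode sequences with the other libraries, none of them between members. UMIs of both Xist and a Y-linked gene were found in 6.48% of the members and 6.16% of the other kept barcodes.

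The 6 genes of the rule are given as a description, since they chose the members. Sparcl1 encodes a secreted matrix protein, and it had 1246 CPM (the UMIs of a gene over all UMIs outside mitochondrial, ribosomal protein and haemoglobin genes, times 1000000) in members and 53.7 CPM in the other kept barcodes. A member held 0 to 63 Sparcl1 UMIs, with a median of 6. Tnc, the matrix protein tenascin C, had 508 CPM in members and 26.1 CPM in the others, with 0 to 31 UMIs per member and a median of 2. Slc6a11 encodes the GABA transporter GAT-3, and it had 407 CPM in members and 38.4 CPM in the others. Pla2g7, a secreted phospholipase, had 246 CPM in members and 16.0 CPM in the others. Grm5, a metabotropic glutamate receptor, had 226 CPM in members and 9.22 CPM in the others. Aqp4, the water channel of astrocyte endfeet, had 163 CPM in members and 15.6 CPM in the others, and its median per member was 0 UMIs, with 24 at most.

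No single rule gene was found in every member. Sparcl1 was found in 89.1% of members, Slc6a11 in 87.4%, Tnc in 76.1%, Grm5 in 68.8%, Pla2g7 in 58.7% and Aqp4 in 46.6%. Free RNA in the droplets was read from 579 barcodes with at least 4 of 6 neuron genes and no UMI of the division genes Mki67 and Top2a, a group that should largely lack these transcripts, although 7 of the 579 were also members. In those the shares ran from 1.55% for Pla2g7 to 5.87% for Slc6a11, at a median depth of 5257 UMIs. With every barcode thinned to 4000 UMIs, which leaves 221 of the 247 members and 469 of the 579 neuron barcodes, the shares in members ran from 32.1% for Aqp4 to 78.7% for Sparcl1, and in the neuron barcodes from 1.07% for Aqp4 to 4.05% for Slc6a11. Since the rule asks for 3 of these genes in each member, the shares in members are set by the choice and are no test against free RNA.

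**Figure D1:**
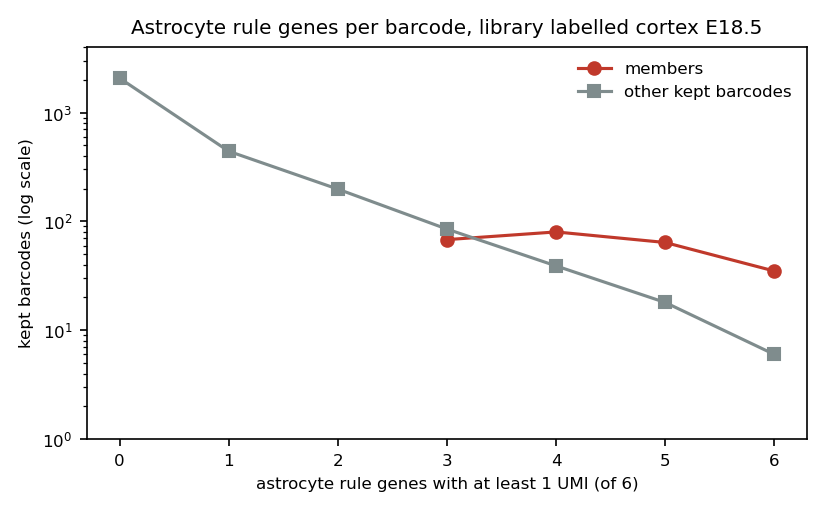
Number of kept barcodes (vertical axis, log scale) by how many of the 6 astrocyte rule genes had a UMI (horizontal axis), in the library labelled cortex E18.5, for members (circles) and other kept barcodes (squares). Members number 68, 80, 64 and 35 at 3, 4, 5 and 6 rule genes, and 2070 kept barcodes had none of the 6 genes.

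Median depth was alike at each number of rule genes. Members with 3, 4, 5 and 6 rule genes numbered 68, 80, 64 and 35, and their median depths were 8416, 8336, 8578 and 8345 UMIs. Just outside the rule, 98 barcodes met every other condition with 2 rule genes, at a median of 8160 UMIs. Genes outside the rule differed along this order. Id3, an inhibitor of differentiation induced by BMP signals, had 344 CPM at 2 rule genes, 872 CPM at 3 and 1851 CPM at 4. At 5 and 6 rule genes Id3 had 2196 and 1839 CPM. Aldoc, a glycolytic enzyme rich in astrocytes, had 371 CPM at 2 rule genes and 1670 CPM at 6. Olig2, a factor of oligodendrocyte and ventral progenitors, ran the other way, with 444 CPM at 2, 404 CPM at 3 and 198 CPM at 4. Its levels at 5 and 6 were 225 and 263 CPM. Egfr, the receptor for epidermal growth factor, had overlapping intervals at 3, 4, 5 and 6 rule genes.

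**Figure D2:**
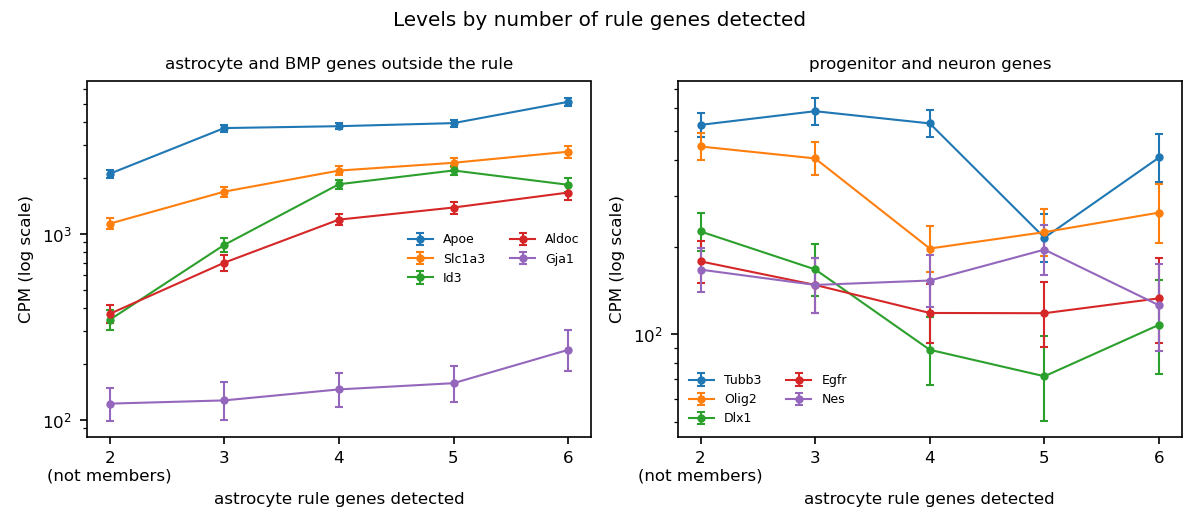
Level in CPM (vertical axes, log scale) by the number of astrocyte rule genes found (horizontal axes; 2 are not members), as points with exact Poisson 95% intervals that cover counting error only. Apoe, Slc1a3, Id3 and Aldoc are lowest at 2 rule genes, while Olig2 has 444 CPM at 2 rule genes and 198 CPM at 4.

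Against the other 2857 kept barcodes of the library, 764 of 7749 measured genes were higher in members (9.86% of those measured) and 364 were lower (4.70%). Here and below, higher and lower stand for a ratio of at least 2-fold with at least 20 CPM on either side. This contrast includes the genes that chose the members, so it is a description. The median log2 ratio of all measured genes was -0.05. Where the UMIs of each barcode were split at random into equal parts, and 205 members were chosen on the first and measured on the other, 824 genes were higher and 493 lower, and 684 and 300 of these were among the 764 and 364. In that split Aqp4 had a log2 ratio of 3.63, against 3.38 on all UMIs, Sparcl1 4.50 against 4.54, and Id3 4.47 against 4.52. Aqp4 and Sparcl1 are rule genes, and both parts come from the same barcodes. Their high ratios in the split thus follow from the choice and are no test.

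The marker check used genes that the rule did not name. All 8 of Aldoc, Apoe, Slc1a2, Slc1a3, Gja1, Hepacam, Slco1c1 and Aldh1l1 were higher in members than in the other kept barcodes. Slc1a3, the glutamate transporter GLAST, had 2187 CPM in members and 416 CPM in the others. Aldh1l1, a folate enzyme used as a general astrocyte marker, had 325 CPM in members and 65.0 CPM in the others. Genes of mature astrocytes were scarce. Gfap had 17.1 CPM in members and 1.58 CPM in the others, from 34 UMIs on each side, and was found in 5.67% of members. S100b had 8 UMIs in all members together. Cspg4, a marker of oligodendrocyte precursors, was found in 8.10% of members, and Foxj1, the ciliogenesis factor of ependymal cells, in 7.69%. In the neuron barcodes Gfap was found in 0.345%, Cspg4 in 0.173% and Foxj1 in 2.59%. The members thus had more of these 8 marker genes than the rest of their library, and few transcripts of the mature markers Gfap and S100b. The rest was mixed, with at least 4 of 6 neuron genes in 36.2% of it. No radial glia group was set apart, so the check does not separate astrocyte precursors from radial glia.

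Genes of cells from outside the neural lineage were nearly missing. All 8 microglial genes tested were at 0 in the members, and no member had 3 of them. A count of 0 of 247 allows a share of up to 1.21% at 3 counts, and the exact 95% interval reaches 1.48%. The 8 endothelial genes gave 4 UMIs, with 6 genes at 0. The 5 fibroblast genes gave 10 UMIs, with Col1a1, Lum, Dcn and Col3a1 at 0. The summed mural genes had 68.2 CPM in members and 58.1 CPM in the others, most of it Pdgfrb at 52.2 and 26.3 CPM. Neuron genes were present in some members: at least 4 of 6 neuron genes were found in 27 members (10.9%) and in 36.2% of the other kept barcodes. With those 27 members counted among the other kept barcodes instead, 907 genes were higher in members and 543 lower. The like barcodes among the others were not left out.

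The 12 highest genes outside the rule were Pla2g3, Grm3, Hopx, Id3, Ctsc, Chst7, Nebl, Fam212b, Nog, Ntng1, Serpine2 and Slc7a11. Pla2g3, a secreted phospholipase, had 46.7 CPM in members and 1.16 CPM in the others, a ratio of 40.3-fold (25.7 to 65.4). Grm3, a metabotropic glutamate receptor found on astrocytes, had 65.2 CPM in members and 1.99 CPM in the others, 32.7-fold (23.0 to 47.3). Hopx, a homeodomain-only protein of radial glia, had 23.1 CPM in members and 0.788 CPM in the others, and was found in 11.3% of members. Id3 had 1660.0 CPM in members and 72.6 CPM in the others, 22.9-fold (21.5 to 24.3), and was found in 89.1% of members. Serpine2, a protease inhibitor, had 580.4 CPM in members and 47.7 CPM in the others. Slc7a11, the cystine-glutamate exchanger, had 73.2 CPM in members and 6.54 CPM in the others.

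The promoters of the highest genes are shown because these genes stand together at the top of the contrast. RefSeq's table (GRCm38.p6) holds 9 of the 12 genes. The first 4 of them in order of ratio are printed, with the 250 bases before the start on the gene's own strand, 5′ to 3′, Hopx having 2 starts, and capitals mark the letters TTGGC on either strand (GCCAA when they lie on the other strand). They are the core of the site bound by nuclear factor I (NFI) proteins, which are known for their part in astrocyte formation.
Grm3, chr5:9725353-9725602, minus strand: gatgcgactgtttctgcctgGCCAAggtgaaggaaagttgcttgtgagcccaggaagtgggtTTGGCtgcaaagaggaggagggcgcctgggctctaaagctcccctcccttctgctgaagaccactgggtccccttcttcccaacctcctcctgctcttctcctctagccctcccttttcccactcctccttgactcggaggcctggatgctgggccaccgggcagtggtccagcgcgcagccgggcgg
Hopx, chr5:77115124-77115373, minus strand: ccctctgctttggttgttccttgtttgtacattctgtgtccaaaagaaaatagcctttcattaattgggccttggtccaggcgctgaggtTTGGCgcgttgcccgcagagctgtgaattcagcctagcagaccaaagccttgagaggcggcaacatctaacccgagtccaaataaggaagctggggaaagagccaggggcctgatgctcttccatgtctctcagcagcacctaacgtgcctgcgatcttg
Hopx, chr5:77095268-77095517, minus strand: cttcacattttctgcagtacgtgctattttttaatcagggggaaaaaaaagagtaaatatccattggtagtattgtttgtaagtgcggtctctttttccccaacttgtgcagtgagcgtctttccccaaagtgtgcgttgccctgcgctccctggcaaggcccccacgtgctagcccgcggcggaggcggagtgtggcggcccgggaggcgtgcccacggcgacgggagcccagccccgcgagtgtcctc
Id3, chr4:136143572-136143821, plus strand: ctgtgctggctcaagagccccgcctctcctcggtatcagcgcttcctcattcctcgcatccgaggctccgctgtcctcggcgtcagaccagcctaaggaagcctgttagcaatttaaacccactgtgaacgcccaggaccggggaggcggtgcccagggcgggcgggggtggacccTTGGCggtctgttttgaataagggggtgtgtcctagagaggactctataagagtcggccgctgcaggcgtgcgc
Ctsc, chr7:88277835-88278084, plus strand: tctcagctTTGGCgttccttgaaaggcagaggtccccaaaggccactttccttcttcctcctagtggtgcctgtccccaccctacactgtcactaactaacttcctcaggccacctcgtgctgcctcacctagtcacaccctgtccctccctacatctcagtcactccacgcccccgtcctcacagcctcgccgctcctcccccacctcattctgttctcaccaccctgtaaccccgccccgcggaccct
The letters were found in 8 of the 9 genes, counting any start, and in 51.3% of the 6026 measured genes that the table holds. They were also found in 5 of 9 of the 12 lowest genes, and in 45.3% of all 27025 genes that the table holds. Counted by promoter, they were found in 9 of the 13 promoters of the 9 highest genes held. The share was 45.3% of the 7779 promoters of measured genes and 41.5% of all 32851 promoters. In the printed starts none of the matches is part of GCCAAT or its reverse complement, the CCAAT box that shares these letters. Among the genes not printed, Chst7, Nebl and Slc7a11 each have 1 match that is part of it. Of 4 other motifs searched on both strands, the letters GGCGCC, an element near BMP targets, were found in 3 of the 9 genes and 21.7% of the measured genes. The SOX letters ACAAAG were found in 3 of 9 and 14.7%, the STAT letters TTCNNNGAA in 2 of 9 and 6.57%, and the homeodomain letters TAATTA in none of the 9 and 2.84%. A match describes the letters only.

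BMP signalling genes formed 1 of the lists furthest from the rest. BMPs are secreted factors that favour astrocyte over neuron formation, and they induce the Id genes. Of 6 measured genes of the list, 5 were higher in members and none lower, with a median log2 ratio of 3.18. Id1 had 513 CPM in members and 50.6 CPM in the others, 10.1-fold (9.31 to 11.1). Bmp7, a ligand, had 44.1 CPM in members and 5.42 CPM in the others, and Nog, the secreted BMP antagonist noggin, 87.8 CPM in members and 6.67 CPM in the others. Smad7, an inhibitor inside the pathway, did not reach 2-fold, with 43.6 and 32.4 CPM. The ligand Bmp4 and the antagonist Grem1 were at 0 UMIs in members. A ligand, an antagonist and target genes of the pathway were thus all higher in the members' summed counts.

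Of 14 measured receptor genes 11 were higher in members and 1 lower. The BMP receptor gene Bmpr1b had 37.6 CPM in members and 5.75 CPM in the others. Fgfr3, a receptor of fibroblast growth factors, had 150.5 CPM in members and 23.1 CPM in the others, and Lifr, the receptor for leukaemia inhibitory factor, 40.6 and 7.88 CPM. Ramp1, which pairs with the calcitonin receptor-like receptor, had 181 and 33.5 CPM. Erbb4, a neuregulin receptor of migrating interneurons, was the lower one, with 12.5 and 32.5 CPM. Only Socs3 of the gp130 and STAT list was measured, at 22.1 CPM in members and 15.7 CPM in the others, which is under 2-fold. Of 3 measured hedgehog genes only Ptch1, the receptor and target of the pathway, was higher, with 83.3 and 37.9 CPM.

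All 16 measured transport and junction genes were higher in members, with a median log2 ratio of 2.00. Slc6a9, a glycine transporter, had 61.7 CPM in members and 5.56 CPM in the others. Slc4a4, a bicarbonate transporter, had 248 CPM in members and 31.3 CPM in the others. Gja1, the gap junction protein connexin 43, differed less, with 156 CPM in members and 62.8 CPM in the others. The junction gene Gjb6 was at 0 UMIs in members. Of 15 measured lipid and secreted protein genes 12 were higher and none lower. Fabp7, a fatty acid binding protein of radial glia and astrocytes, reached 24089.7 CPM in members and 4408 CPM in the others. Apoe, the main lipid carrier of astrocytes, had 4002 CPM in members and 1412 CPM in the others, and ran from 0 to 258 UMIs per member.

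Cholesterol synthesis genes were higher as a group, 17 of 18 of them, with a median log2 ratio of 1.78. Dhcr7, which completes the synthesis, had 169 CPM in members and 35.3 CPM in the others, and Msmo1, an enzyme of the same pathway, 659 and 138 CPM. Of 10 measured matrix genes 7 were higher and none lower, among them the proteoglycan genes Bcan (632 CPM in members and 82.6 CPM in the others) and Ncan (1363 and 247 CPM). Of 10 measured genes of the FGF, EGF and ERK list 7 were higher and none lower. Etv4, a target of FGF signals, had 93.3 CPM in members and 10.4 CPM in the others. Synapse-regulating secreted genes were higher in 5 of 6 cases, with Chrdl1 at 26.6 CPM in members and 4.50 CPM in the others.

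Gliogenic transcription factors separated the members less. Only 5 of the 19 measured were higher and none was lower, and the list's median log2 ratio was 0.37. The Notch targets Hes5 (1468 CPM in members, 217 CPM in the others) and Hey1 (129.9 and 20.5 CPM) were among the 5. Sox9, which starts gliogenesis, had 340 CPM in members and 215 CPM in the others, a log2 ratio of 0.66, and Nfia had 441 and 316 CPM. Nes, whose regulatory sequence drives the sorting reporter, had 159 CPM in members and 87.0 CPM in the others, which is under 2-fold. Egfr with Olig1 or Olig2 was found in 47.4% of members (41.0 to 53.8%) and 18% of the others, and in 31.7% and 9.32% after thinning. The glial regulators Sox9 and Nfia thus separated the members from their library less than Hes5 and Hey1 did.

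Neurogenic genes were lower. All 10 measured genes of neurogenic progenitors were lower in members, with a median log2 ratio of -1.69, and 11 of 16 neuron genes. Dlx1, a homeobox factor of GABAergic progenitors, had 109 CPM in members and 671 CPM in the others, 6.14-fold lower (5.37 to 7.05). Insm1, which drives cells away from the ventricle, had 90.8 CPM in members and 472 CPM in the others, and Dll3, a Notch ligand gene, 27.1 and 156 CPM. Of 10 measured ventral genes 8 were lower, with Nkx2-1 at 30.1 CPM in members and 123 CPM in the others. Other lower genes were Tekt1, Dlx1as, Gadd45g, Scrt2, Rffl, Srrm3, Rgs16, Dlgap3 and Dlx2. Cell cycle genes were lower in part, 12 of 32 of the S phase and 8 of 40 of the G2 and M phases, and none was higher. Ventral and neurogenic genes thus made up a smaller part of the members' transcripts than of those of their library.

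Immediate early genes, which respond within minutes to stimuli such as cell dissociation, were higher in 3 of 8 cases. Fos had 219.7 CPM in members and 72.8 CPM in the others, Fosb 43.6 and 12.2 CPM, and Junb 28.6 and 9.83 CPM. Junb did not reach 2-fold on thinned counts (log2 ratio 0.81, against 1.54) or on the UMIs not used to choose (0.97). Egr1 and Jun did not reach 2-fold. Of 5 measured interferon and antigen presentation genes 3 were higher, among them H2-K1 with 69.7 CPM in members and 21.5 CPM in the others. The part of dissociation in these values was not tested.

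**Figure D3:**
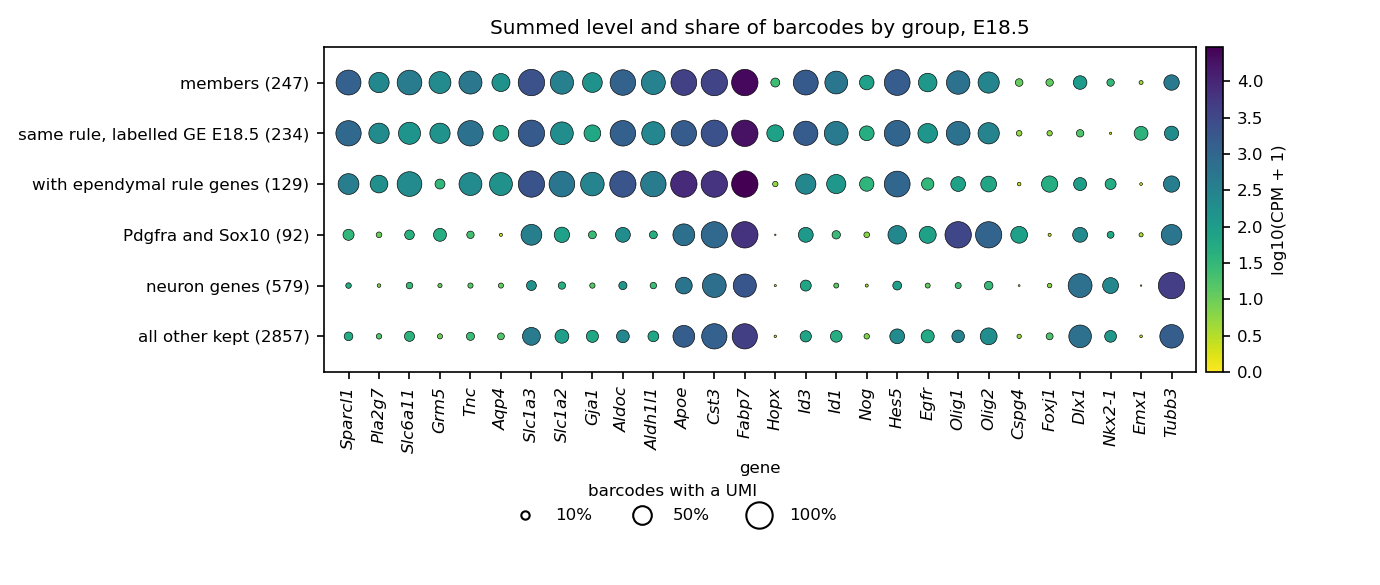
Summed level (colour, log10 of CPM + 1) and share of barcodes with a UMI (point area) of 28 genes (horizontal axis) in members, in barcodes of the same rule labelled GE E18.5, and in 4 other groups of the library labelled cortex E18.5 (vertical axis; number of barcodes in brackets). Members have 1246 CPM of Sparcl1 and 1660.0 CPM of Id3, and the barcodes with Pdgfra and Sox10 have 33.5 and 114 CPM.

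A second set of 129 barcodes held at least 3 of the 6 astrocyte rule genes but also at least 3 ependymal genes, and so fell outside the rule. Their median depth was 10987 UMIs. Apoe had 4002 CPM in members and 8694 CPM in these barcodes, and Sparc, a secreted matrix protein, 246 and 929.8 CPM. Id3 had 1660.0 CPM in members and 247 CPM in the ependymal gene barcodes, and Egfr 129 and 32.6 CPM. Grm5 was found in 68.8% of members and 14% of the ependymal gene barcodes, while Aqp4 was found in 46.6% and 75.2%. Within the members, 107 had none of the ependymal genes, 96 had 1 and 44 had 2. The ependymal rule gene Crym was found in 6.88% of the members, with 18 UMIs in the highest. At least 1 ventral patterning gene was found in 42.5% of members and 79.1% of the ependymal gene barcodes, and dividing barcodes made up 35.6% and 18.6%.

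Oligodendrocyte precursors were another glial group of the library, taken as 92 barcodes with at least 1 UMI of both Pdgfra and Sox10 (median 9098 UMIs). Of 7958 measured genes 723 were higher in members (9.09%) and 483 lower (6.07%), or 751 and 301 where the totals included all genes, a split of 60.0% higher against 71.4%. The median log2 ratio of all measured genes was -0.07, or 0.08 with those totals. The rule set both Pdgfra and Sox10 to 0 in members, and the precursors were chosen on these genes. Aqp4, 1 of the genes that chose the members, had 324 UMIs in members and 1 UMI in the precursors. Id1 had 513 CPM in members and 26.5 CPM in the precursors, 19.4-fold (12.3 to 32.3), and Id3 1660.0 and 114 CPM. Megf10, an engulfment receptor, had 28.6 CPM in members and 1 UMI in the precursors. On thinned counts Megf10 had 20 UMIs in members and 0 in the precursors, too few to call. All but 1 of the 16 measured transport genes were higher in members, as were 5 of 6 BMP genes and 13 of 18 cholesterol genes.

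Of 12 measured oligodendrocyte lineage genes 10 were lower in members and none higher. Gpr17, a receptor of committed oligodendrocyte precursors, had 0 UMIs in members and 63 UMIs in the precursors, at least 58.4-fold lower against a floor of 3 UMIs in the members' sum. Lhfpl3 had 1.5 CPM in members (3 UMIs) and 208 CPM in the precursors. Olig1 was not missing from members, with 636 CPM in members and 3288 CPM in the precursors, 5.17-fold lower (4.83 to 5.54), and Olig2 had 272 and 1104 CPM. Dll1, a Notch ligand gene, had 17.6 CPM in members and 286 CPM in the precursors. Egfr did not reach 2-fold, at 129 CPM in members and 79.5 CPM in the precursors. Dividing barcodes made up 35.6% of members and 27.2% of the precursors.

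The same rule found 234 barcodes in the library labelled GE E18.5, 20.4% of those kept. Of 7754 measured genes 146 were higher in members (1.88%) and 141 lower (1.82%). Region genes were among the highest and the lowest ratios. Gsx1, a ventral patterning factor, had 28.1 CPM in members and 0.394 CPM in the barcodes labelled GE (1 UMI). Of its 56 UMIs in members 38 came from the 68 members with 3 rule genes, 43 from dividing members, and 1 from the members not deeper than the median. On thinned counts it had 5 UMIs in members and 0 in those labelled GE, too few to call. Nkx2-1, the factor of the medial eminence, had 30.1 CPM in members and 0.788 CPM in those labelled GE (2 UMIs), with an interval of the ratio of 10.1 to 323-fold. Six3, a forebrain factor of the ventral eminence, had 62.2 CPM in members and 2.36 CPM in those labelled GE, 26.3-fold (11.8 to 73.1). Dlx1 had 109 CPM in members and 15.8 CPM in those labelled GE. Of 8 measured genes of the ventral list 6 were higher and none lower, with a median log2 ratio of 1.95. The list's summed level ran the other way, with 887 CPM in members and 953 CPM in those labelled GE, of which Meis2 alone gave 542 and 871 CPM.

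Dorsal genes were on the other side, 5 of the 7 measured in the dorsal list being lower in members. Wnt7b was the higher one, with 76.3 CPM in members and 21.3 CPM in those labelled GE, and Emx2 did not reach 2-fold. Neurog2, a proneural factor of the cortex, had 1.0 CPM in members (2 UMIs) and 127 CPM in the barcodes labelled GE. Eomes, of cortical intermediate progenitors, had 3.01 CPM in members and 86.6 CPM in those labelled GE. Emx1, which marks cortical progenitors, had 3.51 CPM in members and 39.4 CPM in those labelled GE, 11.2-fold lower (5.25 to 28.6). It was found in 2.02% of members and 27.4% of those labelled GE. Pax6 had 96.3 CPM in members and 248 CPM in those labelled GE. The barcodes chosen by the same astrocyte genes in the 2 libraries thus carried opposite sets of region genes.

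Some astrocyte genes also differed between the libraries. Of 16 measured transport genes 6 were higher in members and 1 lower. Slc6a9 had 61.7 CPM in members and 14.2 CPM in those labelled GE, and Slc7a10, a serine and alanine transporter, 76.3 and 17.7 CPM. Slc6a11 had 407 CPM in members and 145 CPM in those labelled GE, but as a rule gene it helped to choose the barcodes on both sides. Timp4, a metalloprotease inhibitor, had 119 and 16.5 CPM, and Npy, the neuropeptide Y gene, 78.3 and 6.69 CPM. Slco1c1, a thyroid hormone transporter, was lower, with 58.2 CPM in members and 181 CPM in those labelled GE. Hopx was also lower, with 23.1 CPM in members and 80.7 CPM in those labelled GE. It was found in 11.3% of members and 41.0% of those labelled GE, or in 5.88% and 17.5% after thinning.

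Other genes of the shared programme had log2 ratios close to 0, which the intervals bound. Id3 had 1660.0 CPM in members and 1549.6 CPM in the barcodes labelled GE, a log2 ratio of 0.10 (0.03 to 0.17). Sox9 had 340 and 325 CPM (log2 interval -0.08 to 0.21), Olig1 636 and 631 CPM (-0.09 to 0.12) and Egfr 129 and 131 CPM (-0.26 to 0.21). No cholesterol gene of 18, and none of the 6 measured BMP genes, reached 2-fold in either direction. Over all measured genes only 1.88% were higher and 1.82% lower, so lists this short would hold few at that share. Apoe (1.35), Aqp4 (1.0) and Gja1 (1.29) had log2 ratios of at least 1, but Aqp4 as a rule gene helped to choose the barcodes on both sides. On thinned counts the log2 ratio was 0.41 for Aqp4 and 0.91 for Apoe, and as a mean of per-barcode CPM it was 0.67 for Aqp4. Dividing barcodes made up 35.6% of members and 52.1% of those labelled GE. On thinned counts these shares lay closer together, at 31.7% of members and 37.6% of those labelled GE. Without dividing barcodes on either side the log2 ratio was 0.32 for Aqp4 and 0.98 for Apoe, and 221 genes were higher and 288 lower. Without barcodes with neuron genes 182 genes were higher and 154 lower, and the log2 ratio of the neuron gene Tubb3 was 0.20, against 1.14 with all barcodes. The depth of the 2 libraries also differed, at a median of 8397 UMIs in members and 10431 in those labelled GE.

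**Figure D4:**
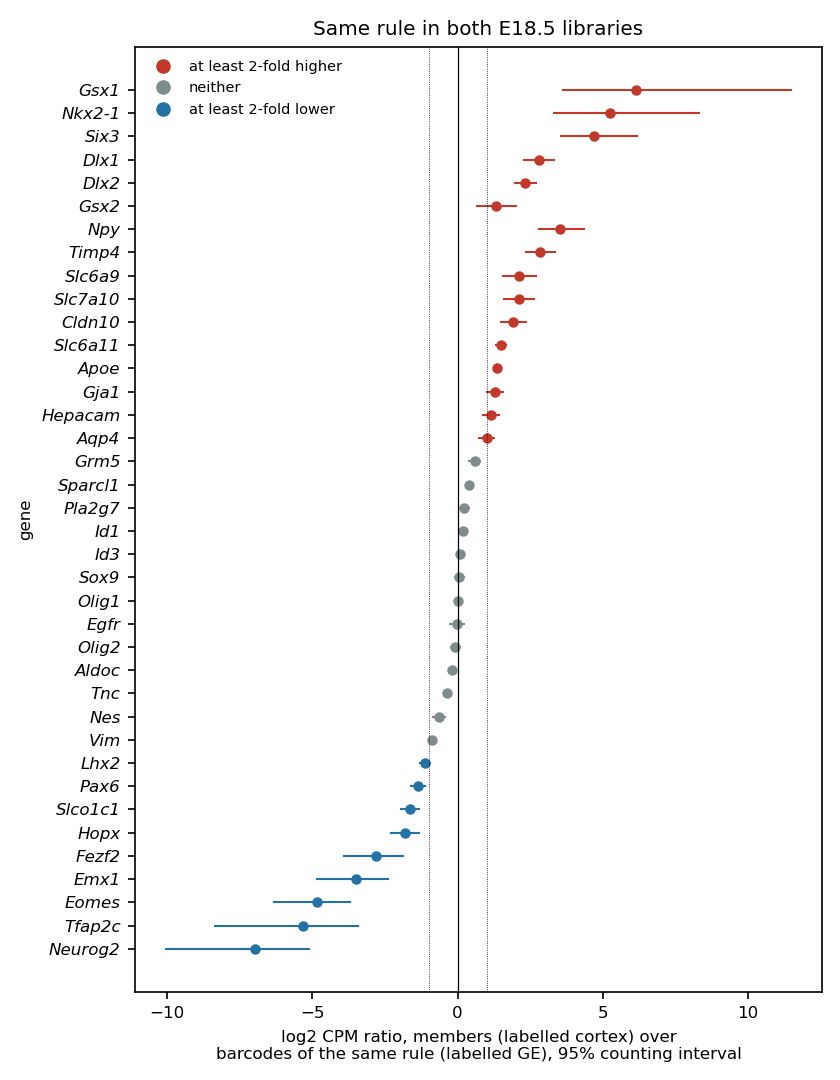
Log2 ratio of CPM for 38 genes, members of the library labelled cortex E18.5 over barcodes of the same rule labelled GE E18.5 (horizontal axis), as points with exact conditional 95% intervals that cover counting error only; dotted lines mark 2-fold. Gsx1, Nkx2-1 and Six3 lie at the top with ratios of 6.16, 5.26 and 4.72 (from 1, 2 and 6 UMIs labelled GE), Neurog2 at the bottom with -6.99, and Id3 at 0.10.

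At E15.5 the rule found few barcodes and these were unlike the members. It found 15 of 1168 kept barcodes labelled cortex (1.28%) and 32 of 876 labelled GE (3.65%), at median depths of 33840 and 51185 UMIs. With every barcode thinned to 4000 UMIs before the rule was applied, 6.71% of the kept barcodes labelled cortex E18.5 met it, against 3 barcodes labelled cortex E15.5 (0.257%) and 1 labelled GE E15.5 (0.114%). Sparcl1 had 1246 CPM in members, 137 CPM in the 15 and 69.1 CPM in the 32. Apoe had 4002 CPM in members, 192 CPM in the 15 and 42.7 CPM in the 32. Gfap was at 0 UMIs in both E15.5 sets. Emx1 was found in 2.02% of members, 6.67% of the 15 and 87.5% of the 32, so the region genes went against the labels at E15.5 as well. Depth, age and library differ together here and cannot be told apart.

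Dividing members were those with at least 3 of 10 genes of the G2 and M phases, and there were 88 of 247, 35.6% (29.7 to 41.9%). The share was 49.1% (47.2 to 50.9%) in the other kept barcodes. After thinning to 4000 UMIs it was 31.7% in members and 43.9% in the others. Depth differed with the split, at medians of 12045 UMIs in dividing members and 6722 UMIs in the other members, and its part in the values was not tested. Of 7782 measured genes 472 were higher in dividing members (6.07%) and 404 lower (5.19%).

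Several genes of astrocyte function were lower in dividing members. Apoe had 2067 CPM in dividing members and 5895 CPM in the other members, 2.85-fold lower (2.71 to 3.0). Gja1 had 90.3 and 220 CPM. Aqp4 had 92.3 and 231 CPM, but as a rule gene it helped to choose the members. Together the 6 rule genes had 1982 CPM in dividing members and 3592 CPM in the other members. Clu, the secreted chaperone clusterin, had 70.0 CPM in dividing members and 267 CPM in the other members. Gfap had 3 UMIs in dividing members and 31 in the other members, a ratio with an interval of 3.15 to 51.7-fold lower. Of these 34 UMIs 12 came from 1 member, so the counting interval is too narrow for Gfap. Of the measured genes, 3 of 16 for transport, 4 of 15 for lipids and secreted proteins and 7 of 14 for structure and metabolism were lower, and none was higher. Neurogenic progenitor genes were higher in 4 of 10 cases. Insm1 had 156 CPM in dividing members and 26.8 CPM in the other members, 5.83-fold (3.85 to 9.13).

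Another set of genes did not reach 2-fold between dividing and other members. Id3 had 1702 CPM in dividing members and 1619 CPM in the other members, and no BMP gene of 6 was higher or lower. With 6.07% of all measured genes higher and 5.19% lower, a list of 6 would hold few such genes at that share. Egfr had 119.7 and 138 CPM, Olig2 259 and 286 CPM, and Hopx 24.3 and 21.8 CPM. The stem cell gene Nes had 179.5 CPM in dividing members and 139 CPM in the other members. The log2 ratios of these 5 genes ran from -0.21 for Egfr to 0.37 for Nes. The summed neuron list had 1914 CPM in dividing members and 1759 CPM in the other members.

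**Figure D5:**
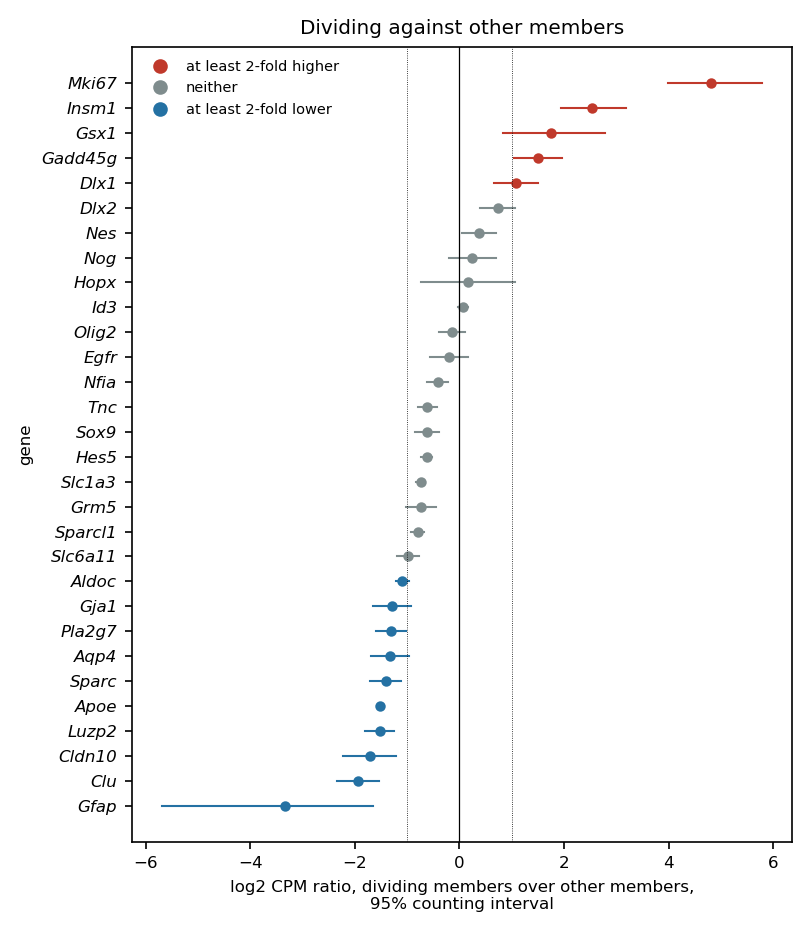
Log2 ratio of CPM for 30 genes, dividing over other members (horizontal axis), as points with exact conditional 95% intervals that cover counting error only; dotted lines mark 2-fold. Insm1 lies at 2.54, Id3 at 0.07 and Apoe at -1.51.

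Splits by single genes showed further spread among the members. Egfr was found in 122 members. Gfap had 2.66 CPM in members with Egfr (3 UMIs) and 35.9 CPM in members without it, of which 1 member gave 12 of the 31 UMIs. Tnc, 1 of the rule genes, had 399 and 651 CPM, and Olig2 346 and 176 CPM. The members with Egfr were deeper, at a median of 9659 UMIs against 7099. Dlx1 or Dlx2 was found in 107 members, 43.3%, and in 82.2% of the other kept barcodes. The neuron list had 2855 CPM in members with a Dlx gene and 798 CPM in members with none. Sparcl1, also a rule gene, had 1149 and 1344 CPM. Median depths were 9873 and 7699 UMIs. Neuron genes were thus at a higher level in the members with Dlx genes. Of the 247 members 19 were among the barcodes most like simulated doublets, 7.69%, against 2.48% of all kept barcodes.

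Over 221 members thinned to 4000 UMIs, the ratio of variance to mean was 1.06 at the median of 5972 genes. It was highest for Malat1 (84.6), Apoe (28.7), Fabp7 (28.2), Meg3 (9.58) and Tubb3 (9.30). Apoe ran from 0 to 123 thinned UMIs per member with a mean of 16.2. Meg3 and the neuronal tubulin gene Tubb3 were found in 27.1% and 23.1% of the thinned members. Hist1h2ap, Sox11, Cst3, Actb, Tmsb4x, Ptn and Dbi completed the 12 genes with the highest ratio. Of the astrocyte rule genes Sparcl1 (7.26) and Aqp4 (4.61) had the highest ratios, and Grm5 (1.54) the lowest. The ratio depends on the mean as well as on the spread, so it does not rank genes by evenness alone. Fabp7, with a mean of 89.4, was found in 100% of the thinned members, and the mean of Tubb3 was 1.08. Lipid carrier genes and neuron genes were thus among those with the highest ratio, at unlike means.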

How the data were processed

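Cells sorted for GFP went into 10x Genomics droplets with the v2 chemistry for 3' ends, per the labels' protocols. The values are UMI counts for each gene in each barcode as the authors deposited them, whole numbers without normalization. Cell Ranger 1.3.1, Seurat and mm10 are named in the submitters' processing notes. Neither the calling of cells nor the number of embryos is given there or in the labels. The tables list 27998 genes.

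The members, gene lists and comparisons were chosen with earlier results of these data known. UMIs were summed over barcodes and divided by totals without 13 mitochondrial, 85 ribosomal protein and 10 haemoglobin genes, as CPM. Totals were 1993380 UMIs in members, 2539330 in the same rule labelled GE E18.5, 717397 in Pdgfra and Sox10 barcodes and 21573962 in the other kept barcodes. Intervals are at 95%: conditional binomial for ratios, Poisson for levels and Clopper-Pearson for shares, all exact. Genes at 0 on 1 side were set against 3 counts. No test across groups was made, since each group has 1 library. Named genes were the 12 highest and 12 lowest ratios per comparison, without rule, sex-linked and predicted genes, plus up to 4 per list, the rule genes and a fixed set of markers. Other genes in the text were chosen after their values were seen. Thinning drew 4000 UMIs per barcode and left out 286 shallower kept barcodes, 26 of them members.

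Barcodes were not removed as doublets in the main results. As an alternative, the barcodes most like simulated doublets were left out, 77 of 3104 kept, 19 of them members, and 11 of 1148 labelled GE E18.5. Scripts were tested on simulated data. Python 3.11.15, numpy 2.4.6, scipy 1.17.1, pandas 2.3.3, scikit-learn 1.9.0 and edgeR 4.0.16 were used, edgeR for TMM factors only.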

Additional observations from a re-analysis of the deposited data

How the results depend on the processing

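No paired analysis was possible because each group has 1 library and the replicate numbers pair nothing. The members numbered 345 with at least 2 rule genes (11.1% of kept barcodes) and 179 with at least 4 (5.77%), 6.71% of kept barcodes where every barcode was thinned to 4000 UMIs first and 6.60% where they were chosen on part of the UMIs. The dividing share was 22.8% where members were chosen and scored on thinned counts. Lower genes against the other kept barcodes numbered 212 with at least 2 rule genes, 833 on thinned counts and 558 as a mean of per-barcode CPM. On thinned counts 282 genes were higher and 411 lower against the same rule labelled GE E18.5, and 1258 higher and 1327 lower against Pdgfra and Sox10 barcodes. Measured on the UMIs not used to choose, 260 genes were lower than in the same rule labelled GE and 959 lower than in Pdgfra and Sox10 barcodes. With totals of all genes 301 were lower than in Pdgfra and Sox10 barcodes. A minimum of 1 CPM gave 1934 higher and 1032 lower against the other kept barcodes, 964 and 814 against the same rule labelled GE, and 1466 and 1424 against Pdgfra and Sox10 barcodes. A minimum of 50 CPM gave 457 and 202, 75 and 55, and 373 and 225. Without dividing barcodes, an alternative chosen after seeing the data, 221 were higher and 288 lower than in the same rule labelled GE. Of the genes named, the log2 ratio of Gad2 against the same rule labelled GE was -0.036 without doublet-like barcodes and -0.13 without barcodes with neuron genes (also chosen after seeing the data), against 1.17 with all. Against Pdgfra and Sox10 barcodes Stmn2 was -0.12 on thinned counts, and -1.42 where barcodes with neuron genes were left out of the members only. Socs3 in that comparison was -0.36 on thinned counts. Of 116, 59 and 103 named genes past 2-fold against the other kept barcodes, the same rule labelled GE and Pdgfra and Sox10 barcodes, at most 9, 11 and 9 were no longer past it under any one alternative. Smaller sums per gene go with thinned and split counts; the cause of the other changes was not tested. The number of barcodes limits the low genes: 1 UMI in the members is about 0.502 CPM.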
